A study of Brassica carinata and Brassica napus and Brassica carinata x Brassica napus with 3 samples.

Results

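Genes that time flowering and give a shoot meristem its floral identity were followed in floral buds of Brassica carinata, Brassica napus and an interspecific hybrid between them. Members were the assembled sequences whose Swiss-Prot description names FLOWERING LOCUS C (FLC), SOC1, AGL24, AGL8 (FRUITFULL, FUL), FLOWERING LOCUS T (FT), TERMINAL FLOWER 1 (TFL1) or LEAFY (LFY). Values were summed over the sequences that share a Swiss-Prot identifier (ID). The rule took 59 of 157663 sequences, of which 81150 had a Swiss-Prot hit, and 10 of 11238 IDs. It also asked for Short Vegetative Phase and Unusual Floral Organs, and 0 sequences carry either phrase. The gene Short Vegetative Phase is annotated here as MADS-box protein SVP, and its 6 sequences are described beside the members as a gene outside the rule, a choice made after its values were seen. Of the 10 IDs, AGL80 with 4 sequences and AGL86 with 1 were taken only because their names begin with the letters of AGL8.

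Per the labels, the buds were taken at the initial flowering stage. The B. carinata parent was cultivar W29 and the B. napus parent cultivar Zhongshuang 11. The direction of the cross is not stated in those labels, nor is the generation of the hybrid. B. carinata is an allotetraploid with the B and C genomes of Brassica, and B. napus one with the A and C genomes, so a hybrid can carry copies from more than one genome. Each group has 1 library, so every difference compares libraries and has no replicate check. Counted reads came to 28.1 M in B. carinata (M, 1000000 reads), 27.1 M in hybrid buds and 28.2 M in B. napus, and a count of 0 allows up to 0.107, 0.111 and 0.106 reads per M. The member sequences drew 10874 reads in all.

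In Arabidopsis, FT is a small mobile protein made in leaves that acts with the bZIP factor FD at the shoot apex and promotes flowering, and TFL1, of the same protein family, keeps the apex indeterminate. The MADS-box repressors FLC, which is silenced by prolonged cold, and SVP hold back FT and SOC1. The MADS-box factors SOC1, AGL24 and FUL promote the floral transition, and LFY, a plant-specific transcription factor, gives new primordia floral identity. FUL is also known for patterning the valves of the fruit.

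The member sequences were 212 to 1595 bases long, with a median of 825 bases, and 9 of them were shorter than 300 bases. Of the 59, each parent had reads on 47 and the hybrid on 50, and 35 had reads in all 3 libraries while 3 had none in any. Levels are RPKM, the deposited reads per kilobase of sequence and per M reads, summed over the sequences of an ID. Because short fragments weigh heavily in such sums, read ratios per M reads are given as well, with exact 95% intervals that cover counting error only.

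FT, the flowering signal, was low in B. napus and higher in the other buds. Its ID, FT_ARATH, held 6 sequences with 154 reads in B. carinata, 173 in hybrid buds and 33 in B. napus. The summed level was 6.53 RPKM in B. carinata, 7.59 RPKM in hybrid buds and 1.26 RPKM in B. napus. The read ratio of B. carinata over B. napus was 4.68 (interval 3.20 to 7.04) and that of the hybrid over B. napus was 5.46 (interval 3.75 to 8.19). Against B. carinata the hybrid ratio was 1.17 (interval 0.934 to 1.46), so these libraries did not differ beyond counting error. In bulk buds, fewer cells of a type and less RNA per cell cannot be told apart, here or in any later comparison.

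Nearly all FT reads of B. carinata and the hybrid lay on 1 sequence of 842 bases. Its best Nt hit is an FT-like 1 messenger RNA of B. oleracea, the species of the C genome. This sequence had 140 reads in B. carinata, 170 in hybrid buds and 0 in B. napus, which puts B. carinata at least 46.8-fold and the hybrid at least 59.1-fold higher, with 3 reads per library in place of the 0. The other 5 FT sequences together had 14 reads in B. carinata, 3 in hybrid buds and 33 in B. napus. Among them, a sequence of 1065 bases had 4, 0 and 18 reads in B. carinata, hybrid and B. napus. One of 883 bases, with the same best Nt hit as the sequence of 842 bases, had 2, 0 and 6 reads. A sequence of 696 bases whose best Nt hit is TWIN SISTER OF FT (TSF), the closest FT relative, had 8, 0 and 4 reads. Hybrid FT reads thus lay on the sequence found in B. carinata, while the sequences that made up the B. napus signal gave 3 reads in the hybrid.

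TFL1, the antagonist of FT, was near the limit of detection. Its 2 sequences, of 224 and 243 bases, had 5 reads in B. carinata, 11 in hybrid buds and 9 in B. napus, or 0.743, 1.72 and 1.41 RPKM. All read ratio intervals of TFL1 included 1, the widest running from 0.732 to 8.39 for the hybrid over B. carinata.

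FLC stood highest in B. carinata, lowest in B. napus and in between in the hybrid. The 8 sequences of FLC_ARATH had 277 reads in B. carinata, 173 in hybrid buds and 70 in B. napus, with levels of 16.4, 8.97 and 4.07 RPKM. The read ratio of B. carinata over B. napus was 3.97 (interval 3.04 to 5.24). The hybrid had 0.649 times the reads of B. carinata (interval 0.533 to 0.787) and 2.58 times those of B. napus (interval 1.94 to 3.45). Each of these intervals excluded 1. Over the parental mean the hybrid had a log2 ratio of -0.17 after adding 1 RPKM, against 0.04 under TMM scaling and -0.40 under median-of-ratios scaling.

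The order held within the main FLC sequences, with 1 exception. The sequence of 898 bases, whose best Nt hit is an FLC gene of the B. napus cultivar Tapidor, had 89 reads in B. carinata, 66 in hybrid buds and 26 in B. napus. The sequence of 1083 bases, closest to the B. napus FLC3 messenger RNA, had 66, 48 and 17 reads in the same order. A sequence of 518 bases, again closest to a Tapidor FLC gene, had 68 reads in B. carinata, 39 in hybrid buds and 1 in B. napus, a ratio of B. carinata over B. napus of 68.2 (interval 11.8 to 2734). The exception was the sequence of 528 bases closest to FLC4, with 22, 15 and 15 reads and a ratio of B. carinata over B. napus of 1.47 (interval 0.730 to 3.05).

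SVP, the partner repressor of FLC, went the other way between the parents. Its 6 sequences had 202 reads in B. carinata, 250 in hybrid buds and 899 in B. napus, with levels of 6.75, 8.25 and 29.9 RPKM. The hybrid therefore sat near B. carinata, with 1.29 times its reads (interval 1.06 to 1.56), and far below B. napus, with 0.290 times its reads (interval 0.251 to 0.334). Its log2 ratio over the parental mean was -1.07 on the RPKM scale, -0.69 with TMM factors and -1.14 under median-of-ratios scaling. The 4 sequences with the most reads differed. One of 1148 bases had 28, 113 and 439 reads in B. carinata, hybrid and B. napus, and one of 1160 bases had 51, 66 and 320. One of 1121 bases had 118, 69 and 73 reads, and so was highest in B. carinata. The fourth, of 555 bases, had 48 reads in B. napus and 0 in both other libraries, which puts the hybrid at least 15.3-fold lower than B. napus.

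**Figure D1:**
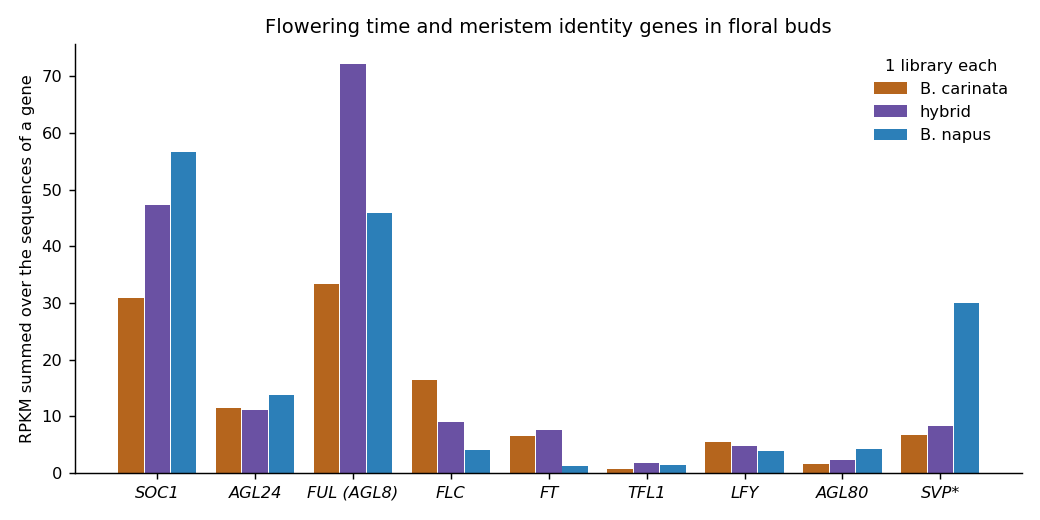
Bars give the RPKM summed over the sequences of each gene in the B. carinata, hybrid and B. napus libraries, 1 library each, with both AGL8 IDs joined as FUL and with SVP, marked by an asterisk, as a gene outside the member rule. FUL was highest in the hybrid, FLC stood at 16.4, 8.97 and 4.07 RPKM, and SVP stood at 29.9 RPKM in B. napus against 6.75 and 8.25 RPKM.

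SOC1, the MADS-box integrator of flowering signals, had the most reads of the member IDs, 3858 over the 3 libraries on 22 sequences. The ID SOC1_ARATH had 730 reads in B. carinata, 1242 in hybrid buds and 1886 in B. napus, and levels of 30.9, 47.2 and 56.6 RPKM. The read ratio of B. carinata over B. napus was 0.388 (interval 0.356 to 0.423), and the hybrid lay between the parents at 1.77 times B. carinata (interval 1.61 to 1.94) and 0.686 times B. napus (interval 0.639 to 0.738). Under TMM scaling the hybrid level of this ID passed that of B. napus, with a log2 ratio of 0.19 in place of -0.26.

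This ID pools relatives of SOC1, which the Nr and Nt names tell apart, a division made after the values were seen. Only 8 of the 22 sequences are named SOC1, AGL20 (a synonym) or SaMADS A, its mustard counterpart. These had 602 reads in B. carinata, 877 in hybrid buds and 1142 in B. napus, with levels of 24.6, 32.1 and 29.8 RPKM. Their read ratio of B. carinata over B. napus was 0.529 (interval 0.478 to 0.584), but their RPKM values were closer, with a log2 ratio of -0.27. By RPKM the hybrid was slightly above both parents, and by reads it lay between them, at 0.801 times B. napus (interval 0.732 to 0.875).

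The sequences named for AGL42, a SOC1 relative that promotes flowering in Arabidopsis, differed more. Their 5 sequences had 94 reads in B. carinata, 229 in hybrid buds and 539 in B. napus, and levels of 3.97, 7.93 and 18.1 RPKM. The read ratio of B. carinata over B. napus was 0.175 (interval 0.139 to 0.218), and the hybrid had 0.443 times the reads of B. napus (interval 0.378 to 0.518). The 6 sequences named for AGL71 or AGL72, the closest relatives of AGL42, had 27, 97 and 122 reads in B. carinata, hybrid and B. napus. The remaining 3 sequences, with no such name, had 7, 39 and 83 reads. In the sum of each of these groups B. carinata had the fewest reads and B. napus the most. Not every sequence had this order. AGL42-named ones of 700 and 696 bases had 28, 11 and 21 reads and 18, 7 and 11 reads in B. carinata, hybrid and B. napus. An AGL71-named one of 404 bases had 19, 18 and 0 reads.

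Of the 4 SOC1_ARATH sequences with the most reads, 3 were highest in B. napus and 1 in B. carinata. The sequence of 1258 bases had 187 reads in B. carinata, 362 in hybrid buds and 380 in B. napus. The sequence of 1595 bases had 125, 235 and 545 reads, and the AGL42-named sequence of 1116 bases 31, 135 and 318. The SOC1-named sequence of 604 bases ran against them, with 227 reads in B. carinata, 196 in hybrid buds and 19 in B. napus. Its ratio of B. carinata over B. napus was 12.0 (interval 7.50 to 20.3).

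AGL24, which acts together with SOC1, was the most even member. Its 7 sequences had 333 reads in B. carinata, 335 in hybrid buds and 444 in B. napus, and levels of 11.4, 11.2 and 13.8 RPKM. The hybrid did not differ from B. carinata beyond counting error, at a read ratio of 1.05 (interval 0.895 to 1.22), and had 0.786 times the reads of B. napus (interval 0.680 to 0.908). The even sum hid sequences that differed. One of 1090 bases had 68, 128 and 237 reads in B. carinata, hybrid and B. napus, and one of 1239 bases had 61, 68 and 93. One of 844 bases ran the other way with 123, 56 and 12 reads, and one of 1385 bases was level at 58, 60 and 62 reads.

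Of the member genes, FUL had the hybrid level farthest above both parents. Its reads fall on 2 IDs, 1 from Arabidopsis (AGL8_ARATH, 3 sequences) and 1 from mustard (AGL8_SINAL, 2 sequences). Together they had 1040 reads in B. carinata, 2134 in hybrid buds and 1448 in B. napus, and levels of 33.3, 72.1 and 45.8 RPKM. The hybrid had 2.13 times the reads of B. carinata (interval 1.98 to 2.30) and 1.54 times those of B. napus (interval 1.44 to 1.64). By RPKM it stood at 1.82 times the parental mean, a log2 ratio of 0.85, against 1.18 under TMM scaling and 0.70 under median-of-ratios scaling. FUL was above both parents under each of the 3 scalings.

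Both FUL IDs had this order. AGL8_SINAL had 16.1 RPKM in B. carinata, 39.9 RPKM in hybrid buds and 22.9 RPKM in B. napus, and AGL8_ARATH had 17.2, 32.2 and 22.9 RPKM. Over the parental mean the log2 ratio of AGL8_SINAL was 0.996, just short of 2-fold, and that of AGL8_ARATH was 0.66. The excess was not on every sequence. The FUL-b-like sequence of 1086 bases, the main one of AGL8_SINAL, had 473 reads in B. carinata, 1093 in hybrid buds and 703 in B. napus, and so was above both parents, with 1.62 times the reads of B. napus (interval 1.47 to 1.78). A FUL-a-like sequence of 452 bases had 8, 34 and 0 reads. In AGL8_ARATH, a sequence of 1152 bases close to the Ful-like gene of B. napus had 367 reads in B. carinata, 445 in hybrid buds and 22 in B. napus, where the hybrid ratio over B. carinata was 1.26 (interval 1.09 to 1.45). The FUL-d-like sequence of 1136 bases had 118, 365 and 545 reads, between the parents in the hybrid. The FUL-a-like sequence of 1202 bases had 74, 197 and 178 reads, and its hybrid ratio over B. napus of 1.15 had an interval of 0.937 to 1.42.

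LFY was low, and in sum it was lowest in B. napus. Its 4 sequences had 92 reads in B. carinata, 77 in hybrid buds and 52 in B. napus, with levels of 5.54, 4.81 and 3.89 RPKM. The read ratio of B. carinata over B. napus was 1.78 (interval 1.25 to 2.54), and that of the hybrid over B. napus was 1.54 (interval 1.07 to 2.24). The hybrid ratio over B. carinata of 0.869 had an interval that included 1 (0.634 to 1.19). Most LFY reads of the parents lay on different sequences. A sequence of 793 bases, closest to LEAFYa of B. rapa, had 74 reads in B. carinata, 44 in hybrid buds and 0 in B. napus, which puts B. carinata at least 24.8-fold higher. A sequence of 657 bases closest to BOFH, the LFY gene of B. oleracea, had 4, 22 and 38 reads, and a shorter BOFH-like piece of 269 bases had 4, 10 and 14. A piece of 240 bases, closest to LEAFY of a B. nigra variety (B. nigra is the species of the B genome), had 10 reads in B. carinata, 1 in hybrid buds and 0 in B. napus. The hybrid library held reads of each of these sequences.

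The IDs that the rule took by their letters were low. The AGL80 ID, named for a MADS-box factor of the female gametophyte in Arabidopsis, had 36, 39 and 81 reads in B. carinata, hybrid and B. napus. Its levels were 1.55 RPKM in B. carinata, 2.28 RPKM in hybrid buds and 4.27 RPKM in B. napus. Most of its reads, 36, 30 and 58, lay on a sequence of 823 bases whose best Nr hit is AGAMOUS-like 87, not AGL80. The sequence of AGL86 had no read in any library.

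**Figure D2:**
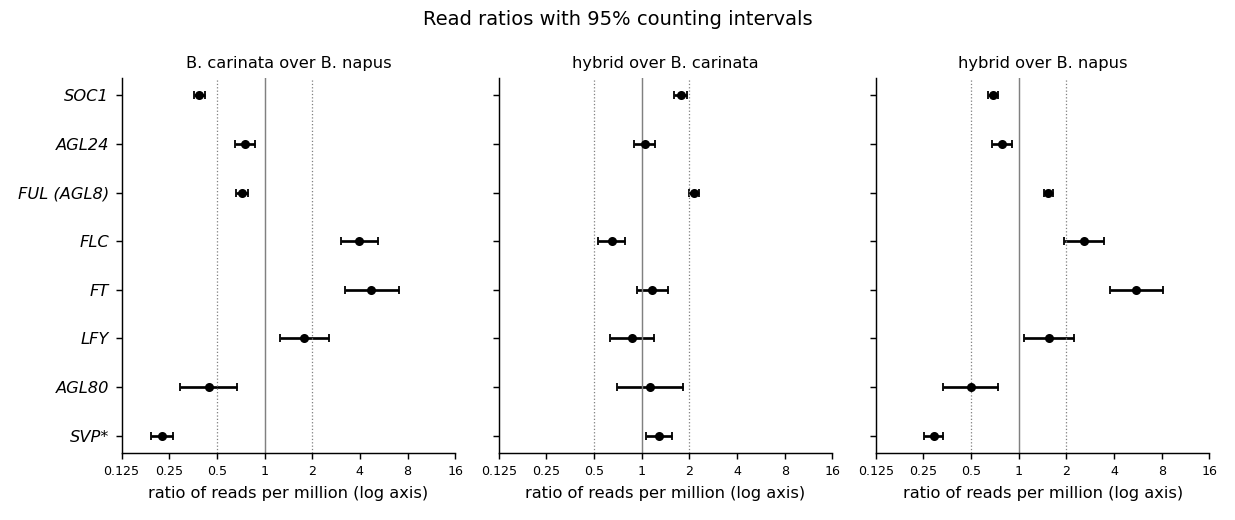
Points give the ratio of reads per M reads on a log axis for each gene in 3 comparisons, with bars for the exact 95% counting interval, a solid line at 1 and dotted lines at 2-fold; TFL1 and AGL86 are left out for their few reads, and SVP, with an asterisk, is outside the member rule. FLC, FT and LFY lie above 1 for B. carinata over B. napus and the other genes below it, while FUL is above 1 in both hybrid comparisons.

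Across the members, calls were set at 2-fold on the log2 scale after adding 1 RPKM, which understates differences of low genes, and the higher library had to reach 5 RPKM. For B. carinata over B. napus, 7 of the 10 IDs reached that level, 2 of them, FLC and FT, were called higher, and 0 were called lower. Of all IDs, 17.6% were called higher and 12.4% lower in this comparison, so the members' share is near the background. FLC had a log2 ratio of 1.77, FT 1.73, LFY 0.42, AGL24 -0.26 and SOC1 -0.85. With a pseudocount of 5 RPKM the call of FT was lost, at 0.88. The members' median was -0.26 and that of all IDs 0.08.

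In the hybrid, few members were called against either parent. Against B. carinata, 1 of 7 members was higher (AGL8_SINAL, log2 ratio 1.26) and 0 were lower, where 3.56% of all IDs were higher and 8.18% lower. With the median of ratios that call was lost, at 0.96, and FLC was called lower, at -1.09. Against B. napus, 1 of 6 was higher (FT, log2 ratio 1.92) and 0 were lower, where 7.86% of all IDs were higher and 7.7% lower. FLC, at 0.97, was just inside 2-fold in that comparison. Against the parental mean, 0 of 6 were called higher and 0 lower, where 0.659% of all IDs were higher and 5.96% lower. With TMM factors 2 were called higher, AGL8_SINAL at 1.32 and FT at 1.01. These comparisons share libraries and are not independent of each other.

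By position alone, with no fold asked, the hybrid was above both parents for 3 of 7 member IDs (AGL8_SINAL, AGL8_ARATH and FT), below both for AGL24 and between them for SOC1, FLC and LFY. Among all IDs of at least 5 RPKM, the hybrid was above both parents for 19.0%, below both for 22.3% and between them for 58.7%. The positions of FT, AGL24 and SOC1 depended on the scaling, that of SOC1 as given above. With the median of ratios the hybrid FT level lay below that of B. carinata, at a log2 ratio of -0.08, and with TMM factors AGL24 in the hybrid was above both parents, at 0.14 over each. TMM factors shifted log2 ratios by 0.28 for B. carinata over B. napus, 0.18 for the hybrid over B. carinata and 0.46 for the hybrid over B. napus. The median of ratios shifted them by 0.28, -0.31 and -0.03.

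Sequences were then sorted by which parent carried them. A sequence was B. carinata-type where its reads per M were at least 10-fold those of B. napus with at least 20 reads in the higher parent, B. napus-type the other way round, and otherwise shared. The parents set the type, so only the hybrid values are free of it. Of the 59 member sequences, 29 had enough reads, and 6 were B. carinata-type, 18 shared and 5 B. napus-type. Among all 99077 sequences with enough reads, 30.5% were B. carinata-type and 17.4% B. napus-type, 47.9% together, and the members came to 37.9%. The B. carinata-type sequences were 1 each from FT, LFY, FLC, AGL24, FUL and the SOC1-named group. The B. napus-type sequences all belonged to the SOC1 ID, and none of them is in its SOC1-named group.

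The 6 B. carinata-type sequences had 999 reads in B. carinata, 950 in hybrid buds and 54 in B. napus. Their pooled hybrid ratio over B. carinata was 0.988 (interval 0.903 to 1.08), and the median over sequences was 0.76. Over all B. carinata-type sequences the pooled ratio was 0.54 and the median 0.49. The hybrid ratios spanned 0.473 (interval 0.338 to 0.654) for the AGL24 sequence to 1.26 for those of FUL and FT, whose sequences carried 445 and 170 of the 950 hybrid reads. The 5 B. napus-type sequences had 45 reads in B. carinata, 263 in hybrid buds and 591 in B. napus. Their hybrid ratio over B. napus was 0.464 (interval 0.400 to 0.537) with a median of 0.49, beside 0.44 and 0.45 over all B. napus-type sequences. Each of these 11 parent-typed member sequences had reads in the hybrid, as did all but 2.61% of the B. carinata-type and 4.60% of the B. napus-type sequences of the whole table. Of the hybrid's member reads, 22.7% lay on B. carinata-type sequences, 6.29% on B. napus-type sequences and 66.6% on shared ones.

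**Figure D3:**
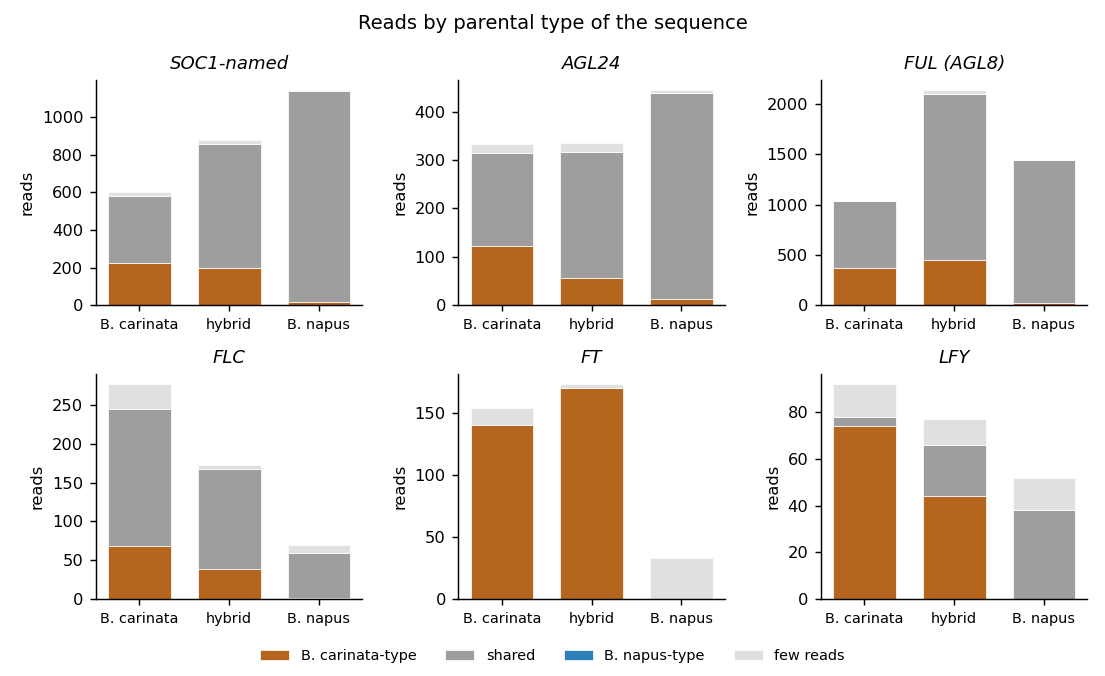
Stacked bars give reads per library for 6 genes, split by whether a sequence is B. carinata-type, shared, B. napus-type or has fewer than 20 reads in both parents. The 140 and 170 FT reads of the B. carinata-type sequence make up nearly all FT reads of B. carinata and the hybrid, whereas most FUL, FLC and AGL24 reads of the hybrid lie on shared sequences.

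Around the members, 7 lists of flowering genes with 90 genes were looked up by Swiss-Prot name. A match was found for 67, and 60 reached 5 RPKM. The lists were chosen with earlier results of these data known, and a Swiss-Prot ID can pool close relatives here too. For B. carinata over B. napus, 7 of 60 were at least 2-fold higher and 3 at least 2-fold lower, with a median log2 ratio of 0.14. Among all IDs, 17.6% were higher and 12.4% lower. In the hybrid, 1 of 59 was higher and 2 lower against B. carinata, beside 3.56% and 8.18% of all IDs. Against B. napus, 2 of 59 were higher and 3 lower, beside 7.86% and 7.7% of all IDs. TMM factors gave 18 higher and 0 lower against B. napus. The hybrid had 0 of 59 genes at 2-fold from the parental mean in either direction, with a median of 0.10. Of all IDs, 0.659% were higher and 5.96% lower than that mean.

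Upstream of FLC, few genes were 2-fold apart by deposited RPKM. In the autonomous pathway, which lowers FLC, 6 of 7 genes were matched and 0 were 2-fold apart in any comparison at that scale. With TMM factors FCA and FPA, which process FLC transcripts, were called higher in the hybrid over B. napus, at log2 ratios of 1.06 and 1.05. FPA was also called higher in B. carinata over B. napus, at 1.12 with either other scaling. Before scaling, the hybrid over B. napus by reads was 1.48 for FCA and 1.22 for FPA, beside 1.55 and 1.52 by RPKM. For FPA in B. carinata over B. napus the read ratio was 1.33 (interval 1.26 to 1.39), smaller than the 1.81 by RPKM. The largest log2 ratio of the hybrid over the parental mean in that list was 0.45, for FVE/MSI4, a histone-binding protein with 224 RPKM in B. carinata, 330 RPKM in hybrid buds and 258 RPKM in B. napus. FCA, FLD and FY, the next in the list, were at 0.24, -0.13 and -0.12. Of 10 vernalization and Polycomb genes, 1 was 2-fold apart between the parents by deposited RPKM. This was VRN2, a Polycomb subunit needed for lasting FLC silencing, with 52.5, 31.9 and 19.7 RPKM in B. carinata, hybrid and B. napus. LHP1, a Polycomb-associated chromodomain protein, also passed 2-fold there under the other scalings, at log2 ratios of 1.12 and 1.13. With TMM factors VRN1, VRN2, EMF1 and LHP1 were called higher in the hybrid over B. napus, at 1.01, 1.11, 1.16 and 1.41. Their read ratios before scaling were 1.54, 1.45, 1.33 and 1.83, beside RPKM ratios of 1.49, 1.62, 1.67 and 2.02. With the median of ratios VRN2 was called lower in the hybrid over B. carinata, at -1.005. LHP1, EMF1, VRN1 and FIE of this list had hybrid log2 ratios over the parental mean of 0.47, 0.32, 0.25 and -0.24.

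Among FLC activators, only 4 of 13 were matched. EFS/ASHH2, a histone methyltransferase needed for high FLC in Arabidopsis, had the same order as FLC, with 97.4 RPKM in B. carinata, 41.1 RPKM in hybrid buds and 10.8 RPKM in B. napus. By reads its ratio of B. carinata over B. napus was 3.83 (interval 3.55 to 4.13), smaller than the RPKM values give, on 3241, 1593 and 850 reads over 18 sequences. ARP6, a subunit of a chromatin remodeller, had 5.37, 9.94 and 10.5 RPKM. FRI, the activator whose variants set FLC in many Arabidopsis strains, had 595, 698 and 635 RPKM, summed over 35 sequences. Its read ratio of the hybrid over B. carinata was 1.22 (interval 1.21 to 1.24). This sum can pool close relatives, and FRL1 and FRL2 of the same list had no match of their own. FES1, which acts with FRI, had 10.6, 9.82 and 7.73 RPKM. Its reads ran the other way, at 295 in B. carinata, 364 in hybrid buds and 458 in B. napus. The read ratio of B. carinata over B. napus was 0.646 (interval 0.556 to 0.750).

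Among the other repressors of FT and SOC1, several were highest in B. carinata. Of 7 such genes at 5 RPKM, 3 had at least 2-fold more in B. carinata than in B. napus and 0 had 2-fold less, beside 17.6% higher and 12.4% lower among all IDs. The median log2 ratio of these 7 genes was 0.69, or 0.95 under TMM scaling and 0.96 under median-of-ratios scaling. AGL15, a MADS-box repressor related to AGL18, ran the other way, with 21.8, 30.5 and 33.2 RPKM in B. carinata, hybrid and B. napus. MAF1/AGL27, a close relative of FLC, had 55 reads in B. carinata, 15 in hybrid buds and 13 in B. napus, with 6.34, 2.09 and 0.99 RPKM. AGL18, another MADS-box repressor, had 45.6, 25.6 and 19.4 RPKM, and TOE2, an AP2-type repressor of FT, had 38.8, 32.1 and 18.4 RPKM. AGL31, also related to FLC, did not reach 5 RPKM and had 31 reads in B. carinata and 0 in the other libraries. AP2 itself was highest in the hybrid, at 62.8, 79.7 and 42.8 RPKM. TEM1, a repressor of FT, had 13.7, 17.2 and 11.6 RPKM, but its hybrid ratio over B. carinata by reads was 0.981 (interval 0.840 to 1.15).

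In the photoperiod and light list, 15 of 16 genes were matched and 14 reached 5 RPKM. CO, the direct activator of FT, had 10.1 RPKM in B. carinata, 8.11 RPKM in hybrid buds and 3.90 RPKM in B. napus. The ratio of B. carinata to B. napus by reads was 2.41 (interval 1.77 to 3.31). CO and FT therefore had their lowest value in the same library, as did the repressors FLC and TOE2 but not AGL15. A link between these values was not tested. The blue-light receptor CRY1 had 20.4, 15.7 and 8.07 RPKM. GI, a clock-linked activator of CO, ran the other way, with 29.6, 27.2 and 55.9 RPKM. CDF1, a repressor of CO, did likewise, with 7.80, 6.12 and 13.4 RPKM. The hybrid was at least 2-fold below B. napus for GI and CDF1, with read ratios of 0.451 (interval 0.420 to 0.484) and 0.393 (interval 0.328 to 0.470). With TMM factors both calls were lost, at log2 ratios of -0.57 and -0.61 in place of -1.01 and -1.02. SPA1 and CDF2 had hybrid log2 ratios over the parental mean of -0.42 and 0.29. The time of day of sampling is not stated in the labels, and its part in these values was not tested.

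Of the partners of FT, FD was the only gene of its list of 6 to reach 5 RPKM, at 23.1 RPKM in B. carinata, 21.3 RPKM in hybrid buds and 13.8 RPKM in B. napus. A separate TSF ID had 24 reads in B. carinata, 93 in hybrid buds and 354 in B. napus, but only 1.06, 1.51 and 4.34 RPKM. The parents were thus in the reverse order of FT. The ratio of B. carinata over B. napus was 0.068 by reads but 0.243 by RPKM, and the 4 sequences of this ID were not looked at singly. The TSF-named sequences of FT_ARATH, with 8, 0 and 4 reads, did not have this order.

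Of 18 floral meristem genes downstream of or beside the members, 0 were called higher and 3 lower in B. carinata than in B. napus, near the 12.4% of all IDs called lower. Their median log2 ratio was -0.37, or -0.10 under each other scaling. Under those scalings the calls of CAL and AGL19 were lost, at -0.94 and -0.94 for CAL and -0.93 and -0.94 for AGL19 with TMM factors and the median of ratios, and that of ATH1 was kept. ATH1, a homeodomain factor of the shoot apex, had 18.7 RPKM in B. carinata, 61.5 RPKM in hybrid buds and 87.2 RPKM in B. napus. CAL, a MADS-box factor related to FUL and AP1, had 17.2, 26.4 and 40.9 RPKM, whereas AP1 itself was close to level at 63.0, 81.4 and 68.2 RPKM. AGL19, a SOC1 relative that promotes flowering after cold, had 3.04, 2.99 and 8.06 RPKM. The SEPALLATA genes, cofactors of the floral organ identity factors, were each highest in the hybrid by deposited RPKM, but with the median of ratios SEP1 and SEP3 were lower there than in B. carinata, at log2 ratios of -0.13 and -0.10. SEP1 had 127, 143 and 63.9 RPKM, SEP2 172, 259 and 203 RPKM, and SEP3 376, 434 and 230 RPKM in B. carinata, hybrid and B. napus. Their hybrid log2 ratios over the parental mean, 0.58, 0.46 and 0.52, were all under 2-fold.

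**Figure D4:**
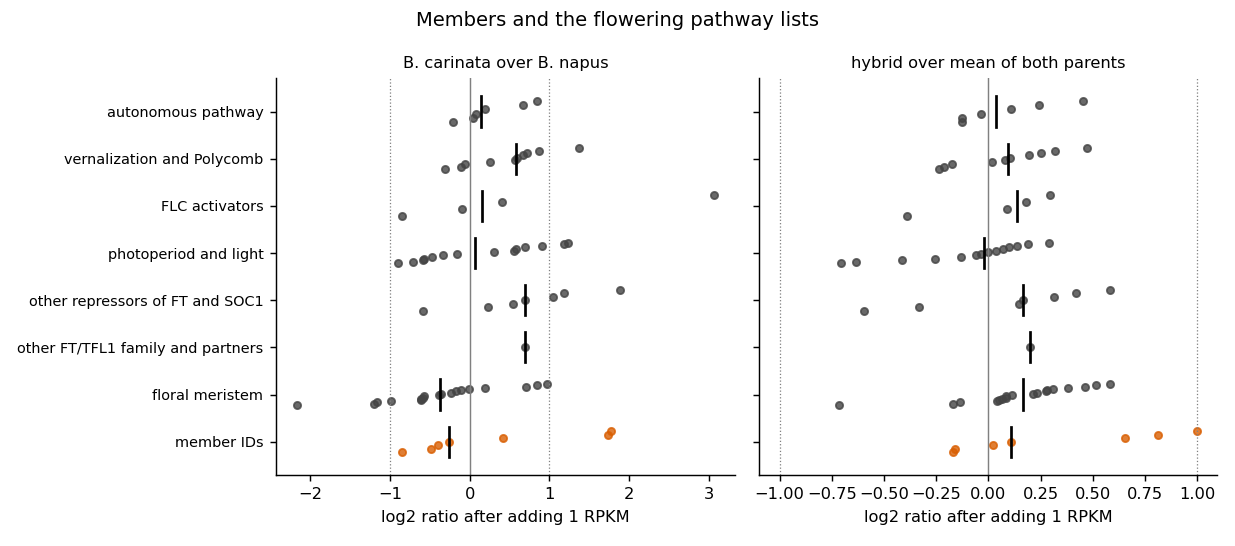
Each point is a gene of at least 5 RPKM in its highest library, by pathway list, with the member IDs in orange; the horizontal axis is the log2 ratio after adding 1 RPKM, for B. carinata over B. napus and for the hybrid over the mean of both parents, dotted lines mark 2-fold and short black lines the median of a list. FLC and FT, at 1.77 and 1.73, stand apart from the other members in the first panel, and in the second panel every gene lies within 2-fold and AGL8_SINAL, at 0.996, lies closest to the limit.

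The libraries were not alike in their levels of tissue markers. The floral organ markers AP3, PI and AG were present in each, at 350, 251 and 196 RPKM for AP3, 291, 312 and 191 RPKM for PI and 130, 103 and 95.7 RPKM for AG in B. carinata, hybrid and B. napus. Both tapetum markers were highest in B. carinata, where A9 had 3665 RPKM against 853 RPKM in hybrid buds and 729 RPKM in B. napus. Both mature pollen markers were near 0 except in B. napus, where VGD1 had 382 RPKM against 2.78 and 1.16 RPKM, and PPME1 127 RPKM against 0.28 and 0.50 RPKM. Of 3 green tissue markers, LHCB3 had 25.0, 6.99 and 0.75 RPKM, RBCS 3095, 2992 and 3412 RPKM, and LHCB2 was not matched. FLC had the same order as A9 and LHCB3 but not as RBCS. By reads the ratio of RBCS in B. carinata over B. napus was 0.556 (interval 0.551 to 0.560). SVP was highest in the library that holds the pollen markers. The part of bud stage and tissue make-up in the differences of FLC, FT, SVP and SOC1 between libraries was not tested, and with 1 library per group it cannot be told apart from species.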

How the data were processed

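Per the labels' protocols, RNA of floral buds came from a Trizol extraction with a DNase I step, and was sequenced on an Illumina instrument, with 1 library for each of B. carinata, B. napus and their hybrid. How reads were assembled, aligned and counted is not given in the sources used here. Per the file headers, the deposited table holds raw read counts and RPKM values per assembled sequence, its length in bases, and best Nr, Nt and Swiss-Prot hits with the score of each hit. The deposited RPKM values equalled count over length and total within 5e-05.

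From these, RPKM was summed per Swiss-Prot ID, and 1 RPKM was added before log2 ratios. No test across samples was made, since each group has 1 library. Intervals of read ratios (95%) are exact and binomial, given the sum of both counts; they cover counting error only, and reads of 1 molecule can be counted more than once. A count of 0 was set to 3 reads for bounds. Named were all member IDs of at least 5 RPKM in the highest library, up to 4 sequences of each with the most reads, and up to 4 genes per pathway list farthest from the parental mean, together with genes called 2-fold apart. SVP, AGL80, AGL15, AGL31, FPA, TSF, AP1 and the further FT, FUL, AGL42 and AGL71 sequences were named after their values were seen. Members and lists were chosen with earlier results of these data known. Near-identical copies can share or split reads, and a best hit does not fix the genome of origin. The calls were tested on simulated data, which cannot stand in for replicate libraries. Alternatives were other scalings (TMM factors of edgeR 4.0.16 in R 4.3.3, and the median of ratios), pseudocounts, minimum levels, sequence subsets and readings of the member rule. Other steps used pandas 2.3.3, numpy 2.4.6, SciPy 1.17.1 and, for plots, matplotlib 3.10.9 in Python 3.11.15.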

Additional observations from a re-analysis of the deposited data

How the results depend on the processing

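Alternatives were set against the counts of members and pathway genes and the pooled ratios of parent-typed sequences. Of those values, 141 were within 1.5 times the reported count or inside the counting interval, and 39 were not. Of single-member log2 ratios, 208 were marked as the same, 68 as moved and 0 called ratios changed sign. The marks do not say whether such a log2 ratio lay inside the interval of its read ratio. For members, TMM factors gave 2 higher against B. carinata, 3 higher against B. napus and 2 higher against the parental mean in the hybrid, and the median of ratios 0 higher and 1 lower against B. carinata. A pseudocount of 0.1 gave 2 higher against B. napus and 1 against the mean, and one of 5 gave 1 higher between the parents. Sums of RPM gave 1 lower in B. carinata than in B. napus and 2 higher in the hybrid against B. napus. The sequence of highest mean per ID gave 1 higher and 2 lower between the parents, 2 higher in the hybrid against B. carinata and 1 against the mean. Sequences found in all 3 libraries gave 1 higher between the parents and 0 in the hybrid against B. napus, since no FT sequence had reads in all 3 libraries and FT then had no value, and sequences of at least 500 bases gave 2 higher in the hybrid against B. napus. With no minimum or a minimum of 1 RPKM, 1 member was lower between the parents. With SVP added, after its values were seen, 1 was lower between the parents, 1 in the hybrid against B. napus and 1 against the mean.

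For pathway genes, with alternatives chosen after seeing the data, TMM factors gave 12 higher and 1 lower between the parents (reported: 7 and 3) and 18 higher and 0 lower in the hybrid against B. napus (reported: 2 and 3). The median of ratios gave 13 higher and 1 lower between the parents and 5 lower in the hybrid against B. carinata (reported: 2). A pseudocount of 0.1 gave 4 higher against B. napus, and one of 5 gave 3 higher between the parents, 1 lower against B. carinata and 0 lower against B. napus. No minimum and a minimum of 1 RPKM each gave 2 higher against B. carinata, and 1 higher and 1 lower against the mean.

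Depth limits TFL1, LFY and the FT sequences of B. napus, where most counts are under 40 reads. No paired analysis was possible because each group has 1 library.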
